A study of Mus musculus with 6 samples.

Results

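The genes described are the 5 mouse genes of the platelet-activating factor acetylhydrolases, Pla2g7, Pafah1b1, Pafah1b2, Pafah1b3 and Pafah2. They were found by matching the RefSeq transcript accession of each row of the deposited table to these gene symbols. All 5 had a row, of 20263 named genes in all, and together they held 6 of 32025 rows: Pafah1b1 had 2 rows and each other gene had 1. The family was selected on the measured rise of its Pla2g7 row with miR-128 relative to miR-Control, so the values of this contrast are given as a description, with no test of the members.

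Platelet-activating factor (PAF) is an ether phospholipid messenger with an acetyl group, and removal of that acetyl group ends its action. Pla2g7 encodes the secreted enzyme, which travels with lipoproteins in plasma and also cleaves oxidised phospholipids. Pafah2 encodes a related enzyme inside the cell. Pafah1b2 and Pafah1b3 encode the catalytic subunits of the intracellular type I enzyme, and Pafah1b1 encodes its noncatalytic partner LIS1. LIS1 also binds the motor protein dynein and is required for neuronal migration and for the divisions of neural progenitors.

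The cells were neural stem cells of CD-1 albino mouse embryos at stage E14.5, kept dividing as neurospheres, colonies of progenitors that float in the medium. They were nucleofected, a form of electrical transfection, with a miR-128 mimic or with a control RNA called miR-Control, and RNA was taken 72 h later. There were 3 arrays with miR-128 and 3 with miR-Control, described as biological triplicates. The series text states that these cells do not normally express miR-128, so the levels describe an introduced microRNA and both groups went through nucleofection.

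The microRNA is shown because it is the agent by which the labels set the groups apart. RefSeq lists the same mature miR-128-3p at 2 loci of GRCm38.p6, Mir128-1 at chr1:128202404-128202424 on the + strand and Mir128-2 at chr9:112118644-112118664 on the - strand. The other arm differs between the loci, at chr1:128202369-128202389 (+) and chr9:112118679-112118701 (-). The capitals mark the seed, bases 2 to 8, which pairs with target transcripts.
miR-128-3p: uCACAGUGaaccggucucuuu
miR-128-1-5p: cGGGGCCGuagcacugucuga
miR-128-2-5p: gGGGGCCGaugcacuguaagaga
Both 5p arms share the seed GGGGCCG, and of 1679 mature mouse microRNA names in the table only miR-128-3p has the seed CACAGUG. The labels do not say which arm the mimic carried. Seed matches in the transcripts of the family were not analysed here.

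The deposited values are log2 expression values, in which a difference of 1 is a 2-fold ratio. No detection call was used here, so signal over background is unknown for each row. One array lay far from the rest, miR-Control replicate 3, at 42.5 on the first principal component against -18.7 to -0.226. Of 11 markers of neural stem cells and radial glia, the labelled cell type, 10 had a row above the median row of the table. So did 7 of 10 astrocyte and 6 of 10 oligodendrocyte lineage markers, so these counts cannot tell the cell types apart. Vim, an intermediate filament gene, averaged 13.56 ± 0.03 with miR-128 and 13.57 ± 0.05 with miR-Control, and Fabp7, a lipid-binding protein of radial glia, averaged 12.32 ± 0.04 with miR-128 and 12.61 ± 0.16 with miR-Control (SD, n = 3 each). The stem cell marker below the median row was Prom1, at percentile 21.0 of the rows.

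Pla2g7, the secreted enzyme, was higher on every miR-128 array than on every control array. Its log2 values were 7.08, 7.12 and 7.12 in miR-128 replicates 1 to 3, against 6.32, 6.49 and 6.44 in miR-Control replicates 1 to 3. The lowest miR-128 array lay 0.59 above the highest control array, and the miR-128 arrays lay close together, with an SD of 0.02, against an SD of 0.09 for the controls. The means of 7.11 with miR-128 and 6.42 with miR-Control gave a log2 difference of 0.69 (SE 0.10, 95% interval 0.47 to 0.92), which is a 1.62-fold ratio. The row ranked 64 of 32025 by the size of its rise and 7 by its limma p. The family was chosen for this rise, so the ranks are no test. Its mean stood at percentile 37.3 of all rows, in the dimmer part of the table. Leaving out miR-Control replicate 3 gave a difference of 0.70.

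None of the 32025 rows passed limma's test at an adjusted p of 0.05 (0%), so no member row did, while 2291 rows (7.15%) had an unadjusted p under 0.05. Groups of arrays did not overlap in 1 of the 6 member rows, that of Pla2g7, on the higher side. Over the whole table they did not overlap in 11.9% of rows, 6.98% higher and 4.87% lower with miR-128. Nothing is read from the members' count, because the rule used this contrast.

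**Figure D1:**
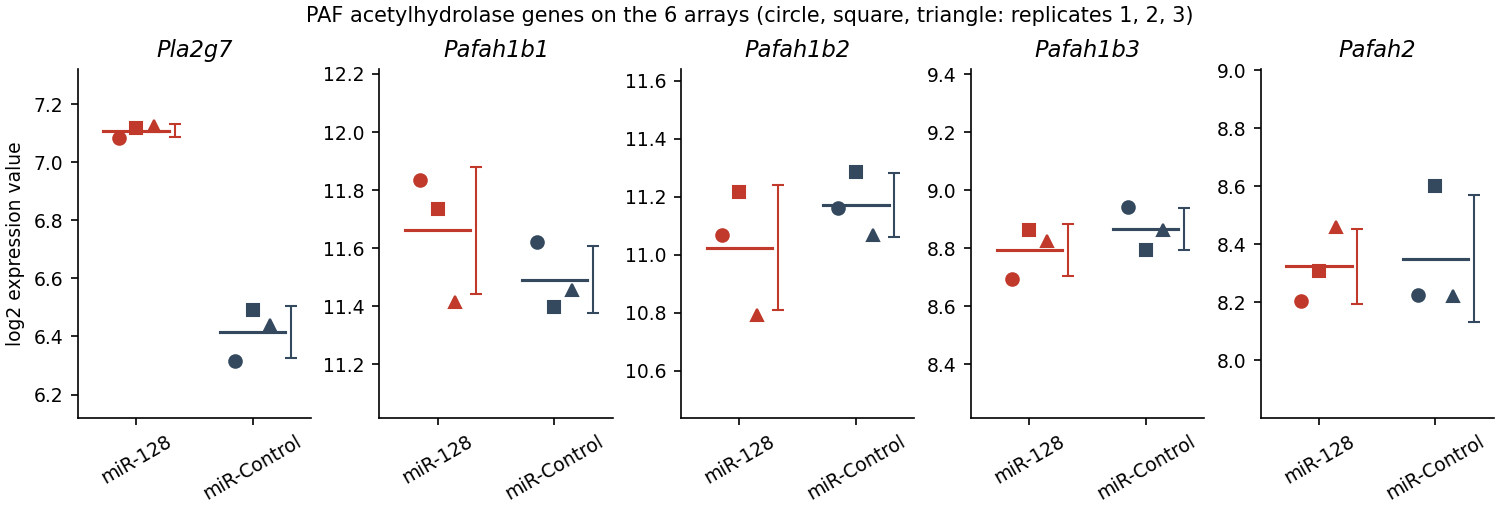
Log2 expression value of each family gene on the 6 arrays, one panel a gene, each axis spanning the same log2 range; points are arrays, horizontal lines are group means and error bars are SDs (n = 3). The Pla2g7 points lie between 7.08 and 7.12 with miR-128 and between 6.32 and 6.49 with miR-Control, and in the other 4 panels the groups overlap.

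Pafah1b1, the LIS1 gene, had log2 values of 11.83, 11.74 and 11.41 in miR-128 replicates 1 to 3, against 11.62, 11.40 and 11.45 in miR-Control replicates 1 to 3. Replicates 1 and 2 with miR-128 lay above all controls and miR-128 replicate 3 lay among them, so the groups overlap. The group means were 11.66 ± 0.22 with miR-128 and 11.49 ± 0.12 with miR-Control (SD, n = 3 each), a log2 difference of 0.17 (SE 0.13, 95% interval -0.14 to 0.48). The second row of the gene carries a noncoding RefSeq transcript and differed by 0.18 (95% interval -0.13 to 0.48). Its values were 11.65, 11.56 and 11.23 with miR-128 and 11.43, 11.21 and 11.26 with miR-Control, the same order of arrays as in the coding row. The 2 rows come from 1 gene and can share probes, so they are not independent measurements.

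Pafah1b2, a catalytic subunit of the type I enzyme, had log2 values of 11.07, 11.22 and 10.79 in miR-128 replicates 1 to 3, against 11.16, 11.29 and 11.07 in miR-Control replicates 1 to 3. Its highest array was miR-Control replicate 2 and its lowest was miR-128 replicate 3, with overlap between. The means of 11.02 ± 0.22 with miR-128 and 11.17 ± 0.11 with miR-Control differed by -0.15 (SE 0.13, 95% interval -0.45 to 0.15). Without miR-128 replicate 3 the difference was -0.03, and without miR-128 replicate 2 it was -0.24.

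Pafah1b3, the other catalytic subunit, had log2 values of 8.69, 8.86 and 8.83 in miR-128 replicates 1 to 3, against 8.94, 8.79 and 8.86 in miR-Control replicates 1 to 3. It varied least over the 6 arrays among the 5 genes, with 0.25 between its highest and lowest array. The means of 8.79 ± 0.09 with miR-128 and 8.87 ± 0.07 with miR-Control differed by -0.07 (SE 0.10, 95% interval -0.31 to 0.16), within the spread of the arrays.

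Pafah2, the intracellular relative of Pla2g7, had log2 values of 8.20, 8.31 and 8.46 in miR-128 replicates 1 to 3, against 8.23, 8.60 and 8.22 in miR-Control replicates 1 to 3. The highest array was a control and the lowest had miR-128. The means of 8.32 ± 0.13 with miR-128 and 8.35 ± 0.22 with miR-Control differed by -0.03 (SE 0.14, 95% interval -0.33 to 0.28). The sign of this difference turned when miR-128 replicate 1 or miR-Control replicate 2 was left out, with a highest value of 0.10.

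**Figure D2:**
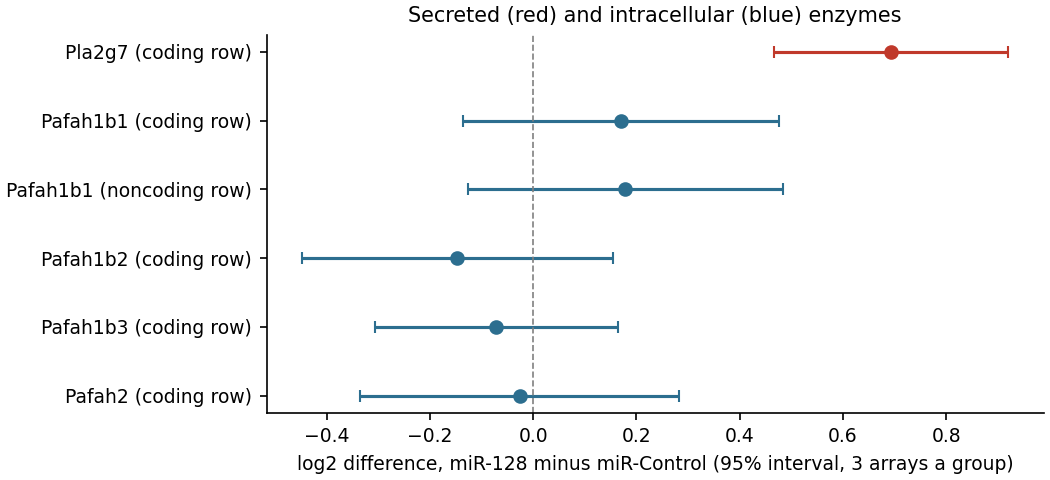
Log2 difference, miR-128 minus miR-Control, of the 6 rows of the family with the 95% interval of the limma fit over 3 arrays a group; red is the secreted enzyme and blue the intracellular genes. The Pla2g7 interval runs from 0.47 to 0.92, and the other 5 intervals include 0.

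On the same arrays the mean of the intracellular genes did not share the step seen in Pla2g7. The mean of the 4 intracellular genes was 9.95, 10.03 and 9.87 in miR-128 replicates 1 to 3, against 9.99, 10.02 and 9.90 in miR-Control replicates 1 to 3, a log2 difference of -0.02. Pla2g7 minus that mean was -2.87, -2.91 and -2.75 with miR-128 and -3.67, -3.53 and -3.46 with miR-Control. Only the change of this quantity between groups can be read, since its level joins different probes, and the change was 0.71. The groups did not overlap in Pla2g7 relative to any one of the 4 genes. Nothing is read from this, because the Pla2g7 groups that chose the family already lay 0.59 apart. The change was 0.52 relative to Pafah1b1, 0.84 relative to Pafah1b2, 0.77 relative to Pafah1b3 and 0.72 relative to Pafah2.

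Within the type I complex, the LIS1 gene and the catalytic subunits had differences of opposite sign, each with an interval that includes 0. Pafah1b1 minus the mean of Pafah1b2 and Pafah1b3 was 1.96, 1.70 and 1.61 in miR-128 replicates 1 to 3, against 1.57, 1.36 and 1.49 in miR-Control replicates 1 to 3. The groups did not overlap in this quantity, by a gap smaller than the SD of either group, and it changed by 0.28. Pafah1b2 minus Pafah1b3, the balance of the catalytic subunits, was 2.37, 2.35 and 1.97 with miR-128 and 2.22, 2.49 and 2.20 with miR-Control, and overlapped.

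PAF is made by acetylation of a lyso-phospholipid, from precursors released by cytosolic phospholipase A2, or by a separate phosphocholine transfer. In the list of PAF synthesis and the PAF receptor, 7 of 10 genes were higher and 3 lower with miR-128, and no gene passed limma's test in either direction. The median log2 difference was 0.10, against 0.02 for all 20263 named genes. Of those named genes 11387 were higher and 8876 lower with miR-128. Groups did not overlap in 2 of the 10, both higher, against 12.1% of named genes in either direction.

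Lpcat1, an acyltransferase that can acetylate lyso-PAF, had log2 values of 11.00, 10.82 and 11.04 with miR-128, against 10.62, 10.40 and 10.35 with miR-Control. All 3 miR-128 arrays lay above the controls, with a log2 difference of 0.50 (SE 0.12, limma adjusted p = 0.391). Chpt1, a choline phosphotransferase, had values of 9.87, 9.53 and 9.47 with miR-128 and 9.39, 9.42 and 9.15 with miR-Control, a difference of 0.30 (limma adjusted p = 0.712). Pla2g4a, the cytosolic phospholipase A2 that releases arachidonic acid and the lyso-precursor, averaged 9.07 ± 0.17 with miR-128 and 8.75 ± 0.31 with miR-Control (SD, n = 3 each) and overlapped. Lpcat2, the inducible lyso-PAF acetyltransferase of inflammatory cells, differed by 0.09 at percentile 15.4 of the rows. Ptafr, the PAF receptor, differed by 0.04 at percentile 26.0. Lpcat2 and Ptafr were named after their values were seen.

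The ether lipid list holds peroxisomal and reductase steps that make the ether backbone of PAF, and also genes that modify or cleave ether lipids. It had 5 of 9 genes higher and 4 lower, with a median of 0.03 and no gene called. No gene of it was without overlap, against 12.1% of named genes in either direction. Agmo, which cleaves ether lipids, averaged 8.34 ± 0.23 with miR-128 and 8.02 ± 0.38 with miR-Control (SD, n = 3 each), a difference of 0.32 inside the spread of the arrays. Pex7, a peroxisomal import receptor, differed by 0.14, and Far2, a fatty acyl reductase, by -0.08. Without miR-Control replicate 3 the number of higher genes was 3.

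Pla2g7 shares its name with the phospholipase A2 family, whose other secreted members are mostly small calcium-dependent enzymes, unrelated to it in sequence. Of 11 genes for other secreted members, 7 were higher and 4 lower, with a median of 0.08 and no call. Without miR-Control replicate 2 the number higher was 4. Of the 11 rows 1, that of Pla2g12a, lay above the median row. Groups did not overlap for 1 of the 11, Pla2g2c, against 12.1% of named genes in either direction. Its values were 7.19, 7.12 and 7.16 with miR-128 and 6.94, 6.89 and 6.84 with miR-Control (difference 0.26, SE 0.10, limma adjusted p = 0.615). Pla2g3 differed by 0.14 and Pla2g5 by 0.11, both with overlap.

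Among 10 intracellular phospholipases A2, 7 were higher and 3 lower, with a median of 0.02 and no call. With each array's median subtracted, 4 were higher. Pnpla8, a calcium-independent enzyme of mitochondria and peroxisomes, averaged 9.77 ± 0.27 with miR-128 and 9.39 ± 0.22 with miR-Control (SD, n = 3 each), a difference of 0.38 (limma adjusted p = 0.697) with overlap. Pla2g16, an enzyme of adipose lipolysis, differed by 0.15 with overlap.

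Because Pafah1b1 acts with dynein, the dynein, dynactin and LIS1-binding genes were examined as a list. Of 24 measured genes 8 were higher and 16 lower with miR-128, with a median of -0.08, against 0.02 for all named genes. No gene passed limma's test in either direction. Without miR-Control replicate 3 the number of higher genes was 4. Groups did not overlap in 6 of the 24 genes, 1 higher and 5 lower, against 12.1% of named genes in either direction (1392 higher and 1068 lower of 20263).

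Dynll2, a dynein light chain, had the largest difference of the list. Its log2 values were 8.67, 8.81 and 8.71 with miR-128, against 9.36, 9.15 and 9.22 with miR-Control. All 3 miR-128 arrays lay below the controls, with a log2 difference of -0.51 (SE 0.11, limma adjusted p = 0.340). Clip1, a protein of growing microtubule ends, differed by -0.29 (SE 0.11, limma adjusted p = 0.651) without overlap. Dync1h1, the dynein heavy chain, averaged 10.06 ± 0.20 with miR-128 and 10.45 ± 0.25 with miR-Control (SD, n = 3 each), a difference of -0.39 with overlap.

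The other genes of this list without overlap had smaller differences. The cargo adaptor Bicd2 differed by -0.20, Nudc, a chaperone that binds LIS1, by -0.20, and the light intermediate chain Dync1li1 by -0.12. Ndel1, the LIS1 partner that links it to dynein, was the one on the higher side, at 10.04, 10.13 and 10.04 with miR-128 and 9.97, 9.97 and 9.84 with miR-Control, a difference of 0.14 (limma adjusted p = 0.876).

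The secreted enzyme travels on lipoproteins, so a list of lipoprotein genes and of enzymes that act on oxidised or lipoprotein lipids was also read. Of 10 genes 8 were higher and 2 lower, with a median of 0.09 and no call, and groups did not overlap in 3 of the 10, 2 higher and 1 lower, against 12.1% of named genes in either direction. Apoe, the main apolipoprotein made in brain, had log2 values of 9.85, 10.08 and 10.26 with miR-128, against 9.48, 9.59 and 9.48 with miR-Control. Every miR-128 array lay above the controls, with a difference of 0.55 (SE 0.12, limma adjusted p = 0.386).

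Pon3, a paraoxonase, did not overlap between groups either, with a difference of 0.10. Apoa1, the main apolipoprotein of high-density lipoprotein, differed by 0.21 with overlap.

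Over these 6 lists, which hold 73 measured genes, 41 were higher and 32 lower. Of all 20263 named genes, 11387 were higher and 8876 lower. The groups did not overlap in 12 of the 73, or 16.4%, against 12.1% of all named genes. None of the 73 had a difference as large in size as that of Pla2g7, the largest being 0.55 for Apoe. Nothing is read from this, because Pla2g7 was chosen for its rise and the 73 genes were not.

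**Figure D3:**
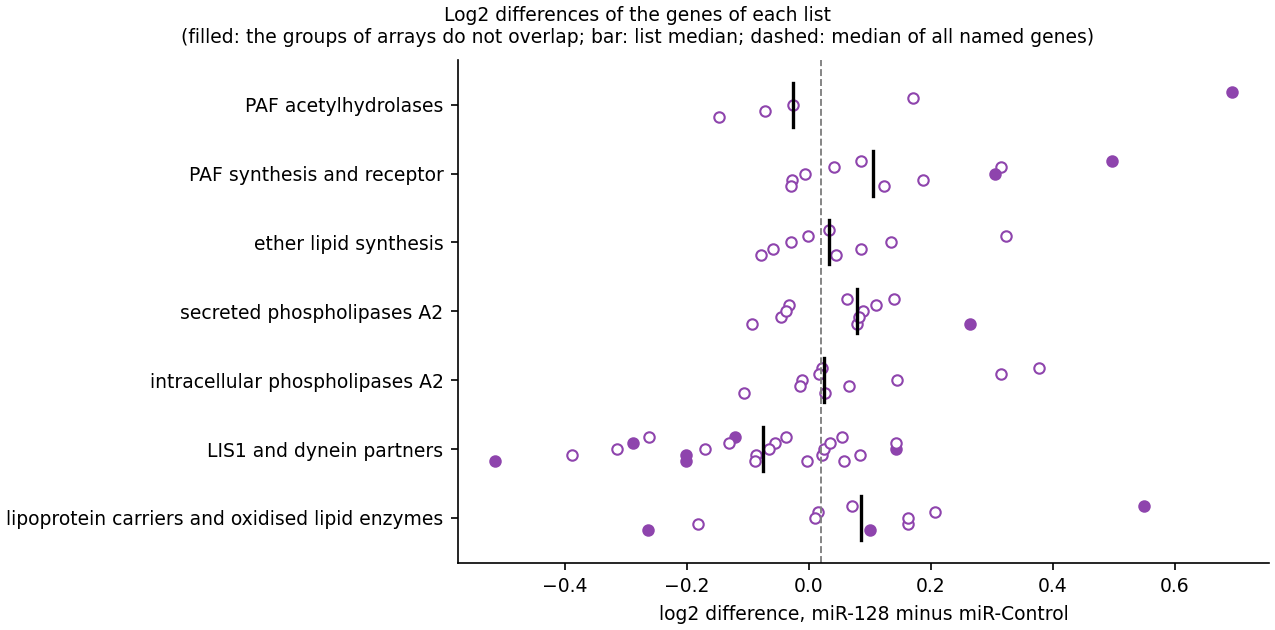
Log2 difference, miR-128 minus miR-Control, of the family and of the measured genes of the 6 lists; each point is a gene, filled where the groups of arrays do not overlap, black bars are list medians and the dashed line is the median of all named genes, 0.02. Pla2g7 at 0.69 lies farthest right, followed by Apoe at 0.55 and Lpcat1 at 0.50, and Dynll2 at -0.51 lies farthest left.

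Pla2g7 is transcribed in macrophages and in glia, so markers of the cell types that neurospheres can hold were set beside it. Of all 20263 named genes 11387 were higher with miR-128. The microglia and macrophage list had 10 of 12 measured genes higher, with a median of 0.03. It had no gene without overlap, against 12.1% of named genes in either direction. Its list means were 6.28 to 6.34 with miR-128 and 6.21 to 6.36 with miR-Control, and all 12 rows lay below the median row, including its brightest, Trem2 at percentile 48.2 and Cx3cr1 at percentile 47.3.

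The astrocyte list had 8 of 10 genes higher, with a median of 0.11 and list means of 8.91 to 9.01 with miR-128 and 8.83 to 8.88 with miR-Control, without overlap. Single genes of that list did not overlap in 4 of 10, 2 higher and 2 lower, against the same 12.1% of named genes. Its brightest genes were Aldoc, at -0.19, and Sox9, at 0.14. The oligodendrocyte lineage list had 9 of 10 higher, with a median of 0.23. Its list means were 8.68 to 8.82 with miR-128 and 8.49 to 8.58 with miR-Control, also without overlap. The PAF synthesis list means did not overlap either, at 8.53 to 8.61 with miR-128 and 8.32 to 8.46 with miR-Control. For every other list the means overlapped between the groups. Single genes of the oligodendrocyte lineage list did not overlap in 3 of 10, all higher, against the same 12.1% of named genes in either direction. Its brightest genes were Olig1, at 0.12, and Olig2, at 0.24. The part of these glial lists in the Pla2g7 difference was not tested, and in bulk RNA a change in the share of a cell type and a change in RNA per cell cannot be told apart.

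The neuron list had 6 of 10 genes higher, with a median of 0.03 and list means of 7.32 to 7.42 with miR-128 and 7.29 to 7.38 with miR-Control. Its brightest genes, Map2 and Gad1, differed by 0.06 and 0.04. The endothelial and mesenchymal list had 5 of 10 higher, with a median of -0.02, and its brightest genes Col1a1 and Col3a1 differed by 0.12 and 0.07. The neural stem cell list had 6 of 11 higher, with a median of 0.05. In that list groups did not overlap for 1 of the 11, Fabp7 at -0.30, against 12.1% of named genes in either direction.

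The genes whose profile over the 6 arrays was most like that of Pla2g7 were taken by Pearson r among 10938 named genes at or above the median row. They were Cdh11, a cadherin, with r = 0.996, Fam114a1 with r = 0.995, Pik3ip1, an inhibitor of phosphoinositide 3-kinase, with r = 0.994, Dlgap1, a postsynaptic scaffold, with r = 0.986, and Vstm4 with r = 0.984. An r above 0.9 was reached by 1.17% of these genes. In all 5 the groups did not overlap, against 12.1% of named genes in either direction. Nothing is read from that count, because choosing genes by r with Pla2g7 favours it. The r follows mainly the step between the groups, and it is given as a measure of likeness over 6 arrays with no p.

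The sizes of the steps differed more than the r values. Cdh11 had log2 values of 7.991, 7.957 and 7.997 with miR-128, against 7.227, 7.336 and 7.366 with miR-Control, a difference of 0.67. The other 4 differed by 0.43 for Fam114a1, 0.36 for Pik3ip1, 0.45 for Dlgap1 and 0.29 for Vstm4. Once each group's mean was removed, r with Pla2g7 was 0.80 for Cdh11, 0.96 for Fam114a1, 0.76 for Pik3ip1, 0.37 for Dlgap1 and 0.90 for Vstm4. For the other family genes it was 0.72 for Pafah2, 0.11 for Pafah1b2, -0.43 for Pafah1b3 and -0.61 for Pafah1b1. This r rests mostly on the control arrays, where the Pla2g7 SD was 0.09, against 0.02 with miR-128.

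**Figure D4:**
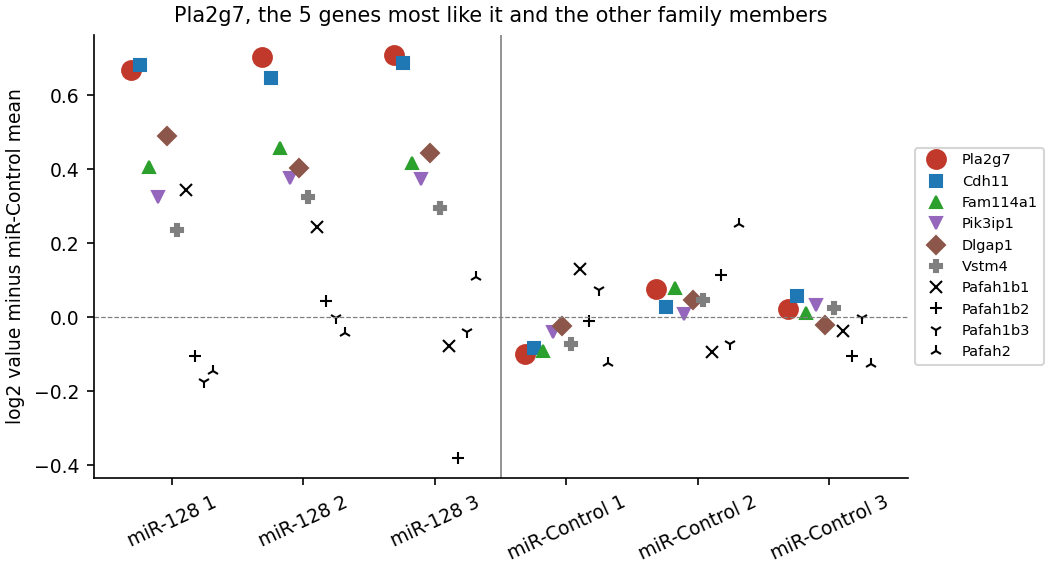
Log2 value minus the miR-Control mean of the same row on each of the 6 arrays, for Pla2g7 (large red circles), the 5 genes of highest r with it (coloured) and the other 4 family genes (black). Pla2g7 and Cdh11 lie together near the top on all miR-128 arrays, and the black symbols of the 4 intracellular genes spread around 0 in both groups.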

How the data were processed

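The authors deposited log2 expression values per RefSeq transcript row, for which the submitters' processing notes name RMA and affy. RMA is meant to even out the arrays and tends to give fold changes smaller than true ratios. The medians of the deposited arrays still ran from 7.40 (miR-Control replicate 2) to 7.54 (miR-Control replicate 3). How probes were grouped into rows, and on which genome build, is not given in the sources used here. Rows were named through the RefSeq table of GRCm38.p6, without version numbers: 25343 of 32025 rows matched. For a gene with several rows, that of highest mean was used.

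limma 3.58.1 in R 4.3.3 (lmFit, eBayes) compared 3 miR-128 with 3 miR-Control arrays, unpaired, two-sided, with Benjamini-Hochberg adjustment over all rows at 0.05 and no filter. The code was tested on simulated data. Array number limits the precision. The ± values are SDs.

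The members and lists were chosen with earlier results of these data known. Of 138 list genes 136 had a row. Named are all members, in each pathway list the 3 genes of smallest p and up to 6 without overlap, in each marker list the 2 brightest, and the 5 genes of highest r with Pla2g7; 1 gene that the rule names is not reported here. Alternatives covered normalization, low rows, repeated rows, weights, the variance trend, the replicate block, the row that represents a gene and each array left out.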

Additional observations from a re-analysis of the deposited data

How the results depend on the processing

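The Pla2g7 difference of 0.69 kept its sign in all 13 alternatives that gave it a value, from 0.64 to 0.73 when each array was left out in turn and from 0.65 (quantile normalization) to 0.73 (array weights) otherwise. Restricting the table to rows at or above the median row removed the Pla2g7 row, so that setting gave no value for it. Pla2g7 minus the intracellular genes, 0.71, ran from 0.65 to 0.76 over the left-out arrays and from 0.66 to 0.76 otherwise. Pafah1b1, Pafah1b2 and Pafah1b3 kept their signs in all 14 alternatives, and Pafah2 in 12 of 14. The number of rows that passed limma's test was 0 with all rows and 0 again with each array left out, 4 among rows at or above the median row and 24 under array weights. Those 24 included Pla2g7 (adjusted p = 0.0453), which is no test since this contrast chose it, and none of the other member or list genes. Replicate numbers are shared by the groups, and the labels name no pairing. Same-numbered arrays had correlations of their deviations from the group means of -0.00278, 0.17 and 0.05. Those of differently numbered arrays ran from -0.24 to 0.19. So few values cannot settle whether the arrays were paired. With the replicate block 0 rows passed, 2544 rows had an unadjusted p under 0.05 against 2291 without it, and the Pla2g7 difference was again 0.69. Among rows at or above the median row, the higher genes were 4 of 7 for PAF synthesis, 0 of 1 for secreted and 3 of 4 for intracellular phospholipases A2, and 2 of 3 for the lipoprotein list, since fewer genes were tested.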
